A study of Mus musculus with 16 samples.

Results

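The apolipoproteins of the mouse liver were followed through the genes Apoa1, Apoa2, Apoa4, Apoa5, Apob, Apoc1, Apoc2, Apoc3, Apoe and Apom. Their rows were taken from the deposited gene count table by gene name, which gave 10 of 55421 gene IDs, each name matching 1 row. Poly-A-selected RNA had been sequenced from the livers of male C57BL/6 mice in 4 groups of 4 libraries, which were control or HIRA KO and were taken before or after the liver had regenerated. HIRA, which deposits H3.3 into chromatin, was deleted in one of 2 ways, either in HIRA fl/fl mice given AAV8-Tbg-Cre or in wildtype mice given AAV8-Tbg-saCas9 with a guide RNA against HIRA. Controls were wildtype mice given AAV8-Tbg-Cre, or wildtype mice given the saCas9 virus with a guide against Rosa26, so all groups carried an AAV8 virus. The Tbg promoter restricts expression to hepatocytes, and cells of other types in the bulk tissue kept the gene. Each group held 2 libraries of each deletion approach. Virus was injected at 6 months of age and the left lateral and median lobes were resected 4 weeks later, which gave the samples before regeneration. The rest of the same livers, taken from killed mice 5 days after resection, gave the samples after it, so the lobe, the time and the way the tissue was collected all changed at once and their parts cannot be told apart. The table columns give genotype, time and a running number from 1 to 4, but neither the mouse nor the deletion approach. Libraries are named by that number below.

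Apolipoproteins are the protein parts of lipoproteins, the particles that carry triglycerides and cholesterol through blood. Apob is the structural protein of very low density lipoprotein, which hepatocytes load with lipid and secrete, and Apoa1 and Apoa2 are the main proteins of high density lipoprotein. The small exchangeable members move between particles and steer their fate: Apoc2 activates lipoprotein lipase, Apoc3 inhibits it, Apoa5 promotes its action, and Apoe is a ligand of lipoprotein receptors. The liver makes nearly all of these proteins, with a large intestinal share for Apoa1, Apoa4 and Apob.

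The members lie at 5 loci (GRCm38 coordinates, GENCODE M21). Apoa1 (46228580 to 46230466), Apoc3 (46232933 to 46235636), Apoa4 (46240696 to 46243459) and Apoa5 (46268633 to 46271919) fill 43340 bases of chromosome 9, with Apoc3 alone on the minus strand. Apoc2 (19671579 to 19677941), Apoc1 (19689481 to 19692660) and Apoe (19696109 to 19699188) fill 27610 bases of chromosome 7, all on the minus strand. Apoa2 lies on chromosome 1 (171225054 to 171226379), Apob on chromosome 12 (7977648 to 8016835) and Apom on chromosome 17 (35128997 to 35132050). Upstream windows of 250 bases were present in the RefSeq table (GRCm38.p6) for 8 of 10 members, without Apoc1 and Apoc3. The windows of Apoa2, Apoa5 and Apoe are printed because these transcripts fell after regeneration in control, and that of Apoa4 because its transcript showed the largest called rise, in HIRA KO. Each reads 5′ to 3′ along its gene, ends before the first base that GENCODE places in an exon, and shows matches to the TATA box letters TATAAA in capitals.
Apoa2, chr1:171224804-171225053, plus strand: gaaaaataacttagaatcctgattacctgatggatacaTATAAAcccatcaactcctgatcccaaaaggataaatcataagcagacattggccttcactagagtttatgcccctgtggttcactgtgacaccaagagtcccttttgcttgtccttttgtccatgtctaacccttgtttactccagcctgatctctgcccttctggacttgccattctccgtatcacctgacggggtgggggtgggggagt
Apoa5, chr9:46268383-46268632, plus strand: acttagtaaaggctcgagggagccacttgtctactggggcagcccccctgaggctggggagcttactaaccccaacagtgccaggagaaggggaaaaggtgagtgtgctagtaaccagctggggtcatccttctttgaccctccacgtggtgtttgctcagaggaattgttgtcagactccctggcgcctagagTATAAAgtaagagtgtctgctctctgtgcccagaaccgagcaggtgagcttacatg
Apoe, chr7:19699189-19699438, minus strand: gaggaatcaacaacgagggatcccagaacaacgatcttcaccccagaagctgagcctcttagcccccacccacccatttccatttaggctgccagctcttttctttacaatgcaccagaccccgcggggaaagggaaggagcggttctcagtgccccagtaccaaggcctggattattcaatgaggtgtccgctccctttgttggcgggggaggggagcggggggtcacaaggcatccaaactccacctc
Apoa4, chr9:46240594-46240695, plus strand: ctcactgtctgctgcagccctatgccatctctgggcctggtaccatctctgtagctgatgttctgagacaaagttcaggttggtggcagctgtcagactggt
TATAAA, searched on both strands, stood 56 bases before the start in this Apoa5 window and 212 bases before it in the Apoa2 window, and 12.4% of all 32851 windows of 250 bases held it. The printed windows of Apoe and Apoa4 held no match. The nuclear receptor motif AGGTCA (14% of windows), CAAAGTCCA (0.384%), TGACCTTTG (0.426%) and TGACGT (6.47%) were absent from these 4 sequences as printed.

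Total counts per library ran from 15103059 to 21738619 (median 18337571). Hira was lower in HIRA KO in every library, at 3.04 to 4.56 CPM (library-size-scaled counts, corrected here by TMM factors) against 4.99 to 6.29 CPM in control, with 47 to 131 counts behind each value. Its log2 fold change was -0.70 ± 0.17 before regeneration (edgeR adjusted p = 0.129) and -0.69 ± 0.17 after it (edgeR adjusted p = 0.0666). Hira itself thus did not pass the threshold of 0.05 used below. On the second principal component of all genes, HIRA KO libraries 1 and 2 stood apart from the other 12 libraries before and after regeneration. Values without them are given beside the results that they move. Each HIRA KO group held 2 libraries of each deletion approach. Whether libraries 1 and 2 were those of 1 approach cannot be read from the columns and was not tested. Values without them rest on 2 HIRA KO libraries at each time and may leave out 1 approach whole. Of the hepatocyte markers, 9 were measured and none was at 0 in any group. All differences below are log2 fold changes with standard errors from 1 edgeR quasi-likelihood fit to the 16 libraries, with adjustment of p over the 23018 genes tested, and called means an adjusted p below 0.05.

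Transcripts of the 10 genes together took 2.34% to 3.77% of all counts in a library. In control before regeneration the share was 3.5% to 3.77%, and in control after regeneration 2.48% to 2.85%, so the control groups did not overlap. HIRA KO libraries 1 and 2 before regeneration stood at 2.54% and 2.34%, below libraries 3 and 4 of the same group at 3.38% and 3.39%. After regeneration HIRA KO libraries ran from 2.56% to 3.24% and overlapped control. Apoe took 37.4% to 48.2% of the apolipoprotein counts in a library and Apoa1 10% to 25.3%.

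**Figure D1:**
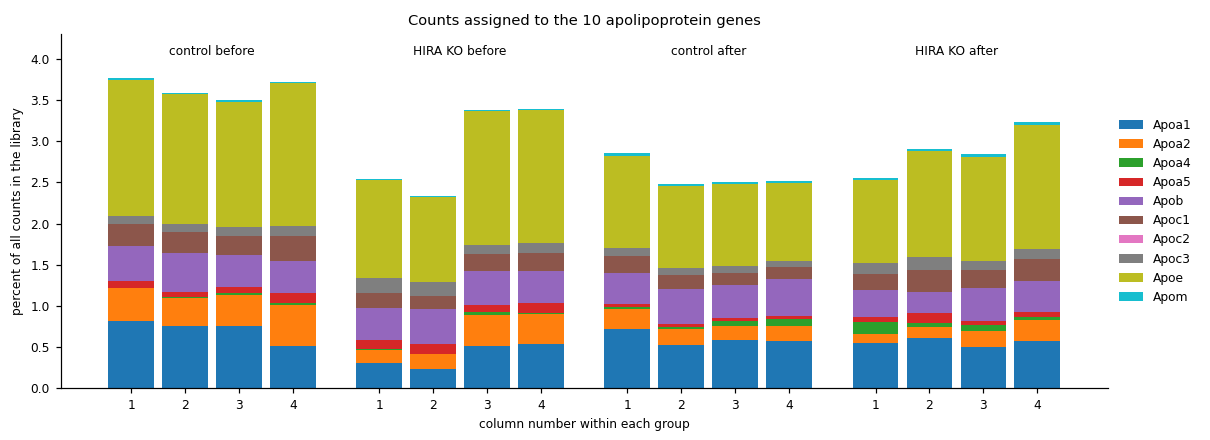
Percent of all counts of each library assigned to each of the 10 apolipoprotein genes, stacked, for the 4 libraries of each group (numbers on the horizontal axis are column numbers). The stacks are tallest in control before regeneration (3.5% to 3.77%) and lowest in HIRA KO library 2 before regeneration (2.34%).

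Levels of different genes were compared only per length, on the deposited FPKM scale. In control before regeneration Apoe was highest at 18399 ± 1097 FPKM (mean ± SD, n = 4), followed by Apoa2 at 8246 ± 1168, Apoc1 at 7085 ± 732 and Apoa1 at 6078 ± 1150 FPKM, and the libraries of neighbours among the last 3 overlapped. Apoc3 followed at 2176 ± 270 FPKM. Below it stood Apob (874 ± 69 FPKM), Apoa5 (721 ± 190 FPKM), Apoc2 (214 ± 59.3 FPKM), Apom (169 ± 35.5 FPKM) and Apoa4 (130 ± 66.1 FPKM), where Apob overlapped Apoa5, and Apom overlapped both Apoc2 and Apoa4. After regeneration in control, Apoa1 (5432 ± 800 FPKM) stood above Apoc1 (4819 ± 890) and Apoa2 (4160 ± 716), again with overlapping neighbours, while Apoa4 at 419 ± 228 FPKM overlapped Apoc2, its next neighbour, at 342 ± 103 FPKM.

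The count and FPKM scales disagreed for Apoc2, the cofactor of lipoprotein lipase. The count table gave it only 8 to 77 counts per library, or 0.533 to 4.32 CPM, while the FPKM table listed 127 to 477 FPKM. Of its 813 exonic bases, 167 (20.5%) are free of another gene on the same strand, and the rest are shared with Gm44805 (chromosome 7, 19671584 to 19681423), an annotated protein-coding gene that also spans Apoc4. Gm44805 had 27 to 112 counts and Apoc4 2995 to 8103 counts per library. How reads in the shared part were assigned is not stated. Other members were free of same-strand overlap, but Apoa4 and Apoa5 have antisense-strand partners (Gm10680 and Gm47528, and Gm47544), which leave 30.2% and 79.2% of their exonic bases free. Whether counting used the strand is not stated. Gm10680 and Gm47544 had 0 counts in all libraries, but 2 to 53.4 FPKM and 2.32 to 51.9 FPKM, so the scales disagreed for them too. Gm47528 had 15 to 223 counts, against 1607 to 30322 counts of Apoa4.

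**Figure D2:**
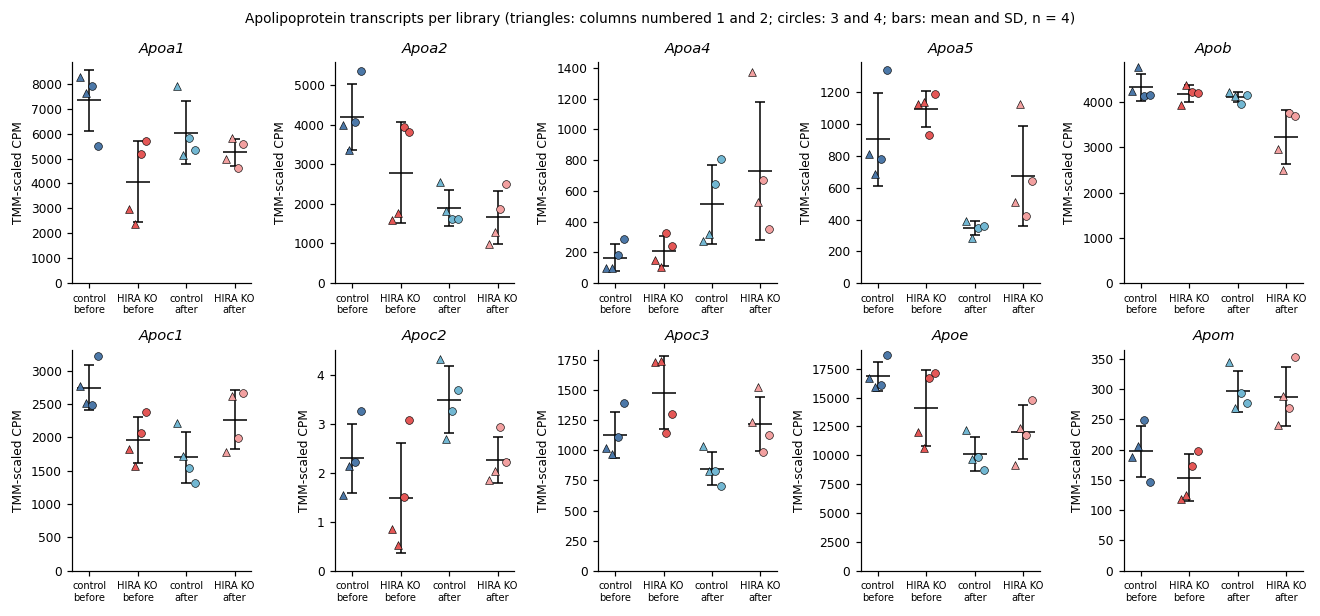
TMM-scaled CPM of each member in each library, by group, from 0. Triangles mark columns numbered 1 and 2, circles 3 and 4, and bars the mean and SD of 4 libraries. Apoa2, Apoa5, Apoc1 and Apoe are lower in all control libraries after than before regeneration, and Apom higher.

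After regeneration, 4 of 10 apolipoprotein transcripts were called lower in control livers and none higher, where 10.2% of all genes were called, 4.17% lower and 6.04% higher. Those that fell were Apoa5, Apoa2, Apoe and Apoc1. The median log2 fold change of the 10 members was -0.35, against 0.00 over all genes. The before and after groups did not overlap for 5 members (these 4 and Apom), where this held for 19% of all genes. In bulk tissue, fewer cells of a type and less RNA per cell cannot be told apart.

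Apoa5, which promotes triglyceride lipolysis and keeps plasma triglycerides low, showed the largest fall. Control libraries 1 to 4 held 815, 688, 780 and 1338 CPM before regeneration and 388, 283, 346 and 361 CPM after it. All libraries after regeneration lay below all before it, and library 4 before regeneration was well above the other 3. This gave a log2 fold change of -1.39 ± 0.26 (edgeR adjusted p = 0.00298), a loss to 0.381 of the level before. The call held without any single library, with adjusted p from 0.00502 to 0.0121.

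Apoa2, a structural protein of high density lipoprotein, had 3991, 3352, 4073 and 5361 CPM in control before and 2558, 1807, 1625 and 1610 CPM after regeneration. The groups did not overlap. Its log2 fold change of -1.14 ± 0.32 passed the threshold (edgeR adjusted p = 0.0315). The call was lost, with adjusted p from 0.0571 to 0.094, when control library 1, 3 or 4 before regeneration or library 2, 3 or 4 after it was left out, while the fold change stayed between -1.17 and -1.01. Without a filter on low counts the adjusted p was 0.0822.

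Apoe, the ligand by which remnant particles are cleared, stood at 16742, 15912, 16062 and 18658 CPM in control before regeneration and at 12195, 9672, 9875 and 8706 CPM after it. The highest library after regeneration was below the lowest before it. The change was -0.74 ± 0.20 on the log2 scale (edgeR adjusted p = 0.0216). Leaving out control library 4 before regeneration, or library 2, 3 or 4 after it, gave adjusted p of 0.0574 to 0.0639.

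Apoc1, the neighbour of Apoe, encodes a small protein that slows the uptake of lipoproteins by receptors. It held 2764, 2511, 2490 and 3219 CPM in control before and 2219, 1722, 1539 and 1319 CPM after regeneration. Again no library after regeneration reached the lowest before it. Apoc1 had a log2 fold change of -0.69 ± 0.19 (edgeR adjusted p = 0.0254), and adjusted p rose to between 0.0569 and 0.0829 without control library 1 or 4 before regeneration or without library 2, 3 or 4 after it.

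Apom, which carries sphingosine 1-phosphate on high density lipoprotein, went the other way. Control libraries held 188, 206, 248 and 146 CPM before and 344, 269, 294 and 277 CPM after regeneration, with no overlap. Its log2 fold change of 0.59 ± 0.18 lay at the edge of the threshold (edgeR adjusted p = 0.0508). The adjusted p was 0.0496 with RLE scaling, 0.032 without control library 3 before regeneration and 0.0156 on the FPKM scale with limma. Over omissions of single libraries the edgeR adjusted p ran from 0.032 to 0.171. Without HIRA KO libraries 1 and 2 of both times, which enter this comparison only through the shared estimate of spread, it was 0.0127.

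Apoa4, a lipid-responsive protein made by liver and intestine, held 95.2, 98.9, 186 and 285 CPM in control before regeneration and 271, 321, 647 and 810 CPM after it. The groups overlapped only in that library 4 before regeneration, at 285 CPM, exceeded library 1 after it, at 271 CPM. The log2 fold change of 1.62 ± 0.53 was not called (edgeR adjusted p = 0.0713), but was called in 5 of 20 alternatives with a test, among them without control library 1 after regeneration (adjusted p = 0.0484), with filterByExpr (0.0392), with limma-voom (0.0353) and with DESeq2 (0.0206). Libraries 3 and 4 lay above libraries 1 and 2 at both times, and the log2 ratio of means was 1.61 within numbers 1 and 2 and 1.63 within numbers 3 and 4.

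Apoc3, the lipoprotein lipase inhibitor that lies between Apoa1 and Apoa4, had a log2 fold change of -0.41 ± 0.18 (edgeR adjusted p = 0.179), and Apoa1 one of -0.28 ± 0.24 (0.553). Apob, whose protein is the backbone of very low density lipoprotein, had the smallest difference and spread, at 4142 to 4777 CPM before and 3964 to 4233 CPM after regeneration (log2 fold change -0.07 ± 0.14, edgeR adjusted p = 0.833). Apoc2 ran from 164 to 296 FPKM before and from 255 to 477 FPKM after regeneration, a log2 difference of 0.66 ± 0.26 on the FPKM scale (limma adjusted p = 0.139) and of 0.61 ± 0.37 by counts (edgeR adjusted p = 0.354). None of these 4 was called.

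**Figure D3:**
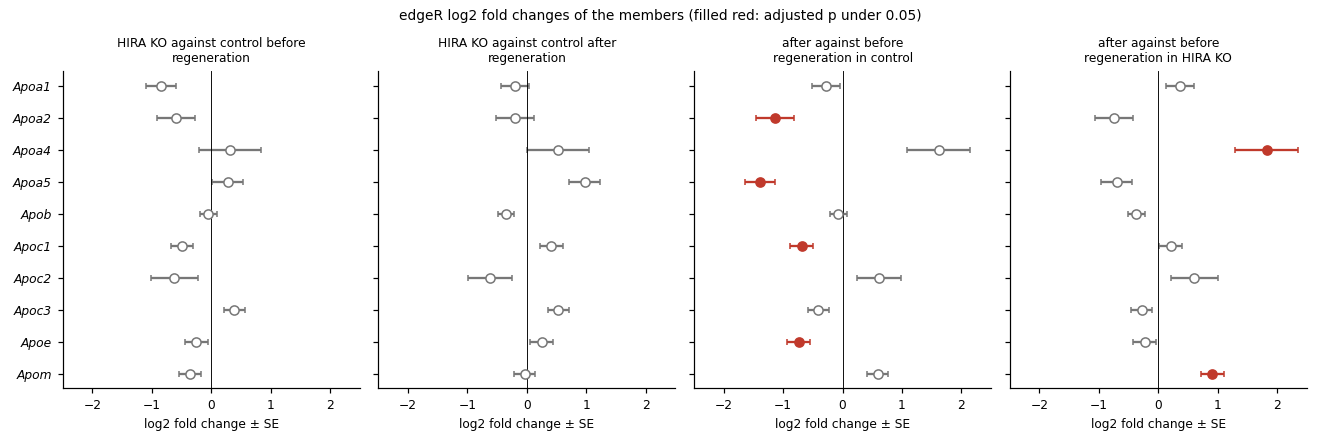
Log2 fold change ± SE of each member in 4 comparisons from the edgeR fit to all 16 libraries. Filled red points have an adjusted p under 0.05. Apoa2, Apoa5, Apoc1 and Apoe are filled in control regeneration, Apoa4 and Apom in HIRA KO regeneration, and no member in HIRA KO against control.

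In HIRA KO livers 2 of 10 members, Apom and Apoa4, were called higher after regeneration and none lower, where 12% of all genes were called, 6.48% higher and 5.53% lower. The median log2 fold change of the 10 members was -0.01, against 0.02 over all genes. Before and after groups did not overlap for 3 members (Apoa4, Apom and Apob), which held for 16.1% of all genes.

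Apom had 118, 125, 173 and 198 CPM in HIRA KO before and 240, 288, 269 and 353 CPM after regeneration. Every library after regeneration lay above every library before it. On the log2 scale Apom rose by 0.91 ± 0.19 (edgeR adjusted p = 0.00453). It stayed called without any single library (adjusted p from 0.00418 to 0.0181) and without HIRA KO libraries 1 and 2 of both times (0.76 ± 0.21, adjusted p = 0.0329).

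Apoa4 had 152, 107, 325 and 242 CPM in HIRA KO before and 1374, 531, 673 and 349 CPM after regeneration. Library 1 after regeneration was the highest of all 16. Its rise of 1.83 ± 0.53 on the log2 scale (edgeR adjusted p = 0.0415) rested on the libraries that stood apart: without HIRA KO libraries 1 and 2 of both times it was 0.87 ± 0.69 (adjusted p = 0.486). The log2 ratio of means was 2.88 within numbers 1 and 2 and 0.85 within numbers 3 and 4. Single omissions of library 1, 2 or 4 before regeneration or of library 1 or 3 after it also ended the call, with adjusted p of 0.0715 to 0.114, and without library 1 after regeneration the value was 1.34.

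Apoa5 had 1125, 1139, 930 and 1189 CPM in HIRA KO before and 511, 1128, 420 and 641 CPM after regeneration. Library 2 after regeneration stayed within the range before it while the other 3 lay below that range. Its log2 fold change of -0.70 ± 0.26 was not called (edgeR adjusted p = 0.0872). Without library 2 after regeneration it was -1.05 (adjusted p = 0.00608), and without libraries 1 and 2 of both times -0.99 ± 0.29 (adjusted p = 0.0428). Over omissions of single libraries the edgeR adjusted p ran from 0.00608 to 0.225.

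For Apoa2 the call also depended on libraries 1 and 2, though its value moved little. HIRA KO libraries held 1596, 1770, 3950 and 3821 CPM before and 982, 1296, 1864 and 2497 CPM after regeneration. Libraries 1 and 2 were the lower ones at both times. The log2 fold change was -0.75 ± 0.32 (edgeR adjusted p = 0.142), and without libraries 1 and 2 of both times it was -0.82 ± 0.25 and called (adjusted p = 0.0448). So without these libraries 3 members were called in HIRA KO regeneration (Apoa2, Apoa5 and Apom), where 10.3% of 21500 genes were.

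Apob held 3941, 4384, 4226 and 4214 CPM before and 2972, 2511, 3751 and 3698 CPM after regeneration in HIRA KO, without overlap. The log2 fold change of -0.37 ± 0.14 was not called (edgeR adjusted p = 0.101). DESeq2 (adjusted p = 0.0111) and limma-voom (0.0467) called it, and without libraries 1 and 2 of both times it was -0.16 ± 0.16 (edgeR adjusted p = 0.554). Apoe (-0.23 ± 0.19) and Apoc1 (0.21 ± 0.19) were not called in HIRA KO, with edgeR adjusted p of 0.482 and 0.523, nor were Apoa1 (0.37 ± 0.24, adjusted p = 0.361) and Apoc3 (-0.28 ± 0.18, adjusted p = 0.352). The Apoa1 value turned to -0.08 ± 0.24 without libraries 1 and 2 of both times (edgeR adjusted p = 0.874). Apoc2 went from 127 to 273 FPKM before to 288 to 383 FPKM after regeneration without overlap on that scale, a log2 difference of 0.76 ± 0.26 (limma adjusted p = 0.0716), and by counts its value was 0.61 ± 0.39 (edgeR adjusted p = 0.335), or 0.19 ± 0.38 without libraries 1 and 2 of both times.

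Whether regeneration acted differently in the genotypes was asked with the difference between the HIRA KO effects after and before regeneration. No member was called, and no gene of the 23018 was (0%), with 1 member and 1568 genes at an unadjusted p under 0.05 in edgeR and 67 genes (0.291%) but no member called by DESeq2. The member with the smallest p was Apoc1, whose difference was 0.90 ± 0.27 on the log2 scale (edgeR adjusted p = 0.434). The fall of Apoc1 and Apoe called in control and not in HIRA KO was not shown to differ between the genotypes. For Apoe that difference was 0.50 ± 0.27 (adjusted p = 0.756) and for Apoa5 0.69 ± 0.36 (adjusted p = 0.756).

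Before regeneration, HIRA KO livers were compared with control to ask what the loss of HIRA did in resting liver. No member was called by edgeR, where 0.0391% of all genes (9 genes) were, and 3 members had an unadjusted p under 0.05, as had 13.2% of all genes. DESeq2 called 1 member, Apoa1, and 1.63% of all genes, and limma-voom no member. The median log2 fold change of the 10 members was -0.31, against 0.01 over all genes, and 7 of 10 values were below 0. The groups did not overlap for 1 member, Apoc1, which held for 8.07% of all genes.

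Apoa1, the main protein of high density lipoprotein, had 8268, 7626, 7909 and 5516 CPM in control and 2984, 2384, 5184 and 5704 CPM in HIRA KO before regeneration. HIRA KO libraries 1 and 2 lay far below all controls, while library 4 lay above the lowest control. Apoa1 thus had a log2 fold change of -0.85 ± 0.25 (edgeR adjusted p = 0.178; exact two-sided permutation p = 0.0571, where 4 against 4 libraries can give no less than 0.0286). DESeq2 called it at an adjusted p of 0.0363, the lowest over the alternatives tried, in which adjusted p reached 0.763. Without HIRA KO libraries 1 and 2 the log2 fold change was -0.43 ± 0.21 (edgeR adjusted p = 0.763).

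Apoc1 had 1829, 1567, 2065 and 2373 CPM in HIRA KO against 2490 to 3219 CPM in control. Its log2 fold change of -0.49 ± 0.19 was not called (edgeR adjusted p = 0.298). On the FPKM scale the difference was -0.20 ± 0.15 (limma adjusted p = 0.616), and the groups then overlapped, at 5834 to 6611 FPKM in HIRA KO and 6077 to 7831 FPKM in control.

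Apoc3 had 1730, 1742, 1147 and 1302 CPM in HIRA KO against 971 to 1397 CPM in control, so that libraries 1 and 2 stood above all controls and libraries 3 and 4 among them. The log2 fold change of 0.39 ± 0.18 was not called (edgeR adjusted p = 0.368), and it was 0.12 ± 0.17 without libraries 1 and 2. In libraries 1 and 2 the log2 ratio to the mean of all controls was -1.45 for Apoa1 and 0.62 for Apoc3. These genes are neighbours transcribed in opposite directions. Neither was called by edgeR in this comparison, and a link between their values was not tested.

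Values of the other 7 members were Apoa2 -0.59 ± 0.32, Apoc2 -0.62 ± 0.39, Apom -0.36 ± 0.18, Apoe -0.25 ± 0.19, Apob -0.05 ± 0.14, Apoa5 0.28 ± 0.26 and Apoa4 0.31 ± 0.52 on the log2 scale, with edgeR adjusted p from 0.41 to 0.922. Without HIRA KO libraries 1 and 2, the values of Apoa2, Apoc2, Apoe and Apom were between -0.11 and 0.01, those of Apob and Apoa5 -0.04 ± 0.13 and 0.23 ± 0.24, and that of Apoa4 was 0.77 ± 0.58. On the FPKM scale, with all libraries, Apoc2 had a value of -0.09 ± 0.26 (limma adjusted p = 0.939). In those libraries, before regeneration, the summed level of the 10 stellate cell and matrix markers was 520 to 719 CPM, against 271 to 285 CPM in HIRA KO libraries 3 and 4 and 241 to 270 CPM in control, and the 8 cholangiocyte markers summed to 119 to 167 CPM against 75.5 to 91.3 and 69.4 to 98.6 CPM. The 8 dividing cell markers summed to 17.7 to 24.1 CPM there, against 8.64 to 8.77 and 6.12 to 13.2 CPM, and the 9 B and T cell markers to 8.67 to 13.9 CPM, against 3.33 to 4.26 and 3.37 to 6.07 CPM. The 9 measured hepatocyte markers also summed highest there, at 161339 to 181643 CPM against 125690 to 139865 and 112245 to 126399 CPM. Most of this sum was Alb, with means before regeneration of 86653 CPM in control and 115033 CPM in HIRA KO. Of these markers only Fgb (4654 and 3135 CPM) and Hp (3465 and 2003 CPM) had lower means in HIRA KO. The 10 Kupffer cell and macrophage markers were not higher in HIRA KO libraries 1 and 2, at 286 to 303 CPM against 288 to 300 and 183 to 493 CPM. The 8 endothelial markers summed to 226 to 276 CPM in them, against 274 to 333 and 262 to 321 CPM. For the 8 enterocyte markers the sums were 51.5 to 52.9 CPM, against 68.1 to 77.2 and 52.5 to 101 CPM. Of these lists other than the enterocyte one, only 1 cholangiocyte marker was at 0 in all libraries of the control and of the HIRA KO group. The part of these cells in the member values was not tested.

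**Figure D4:**
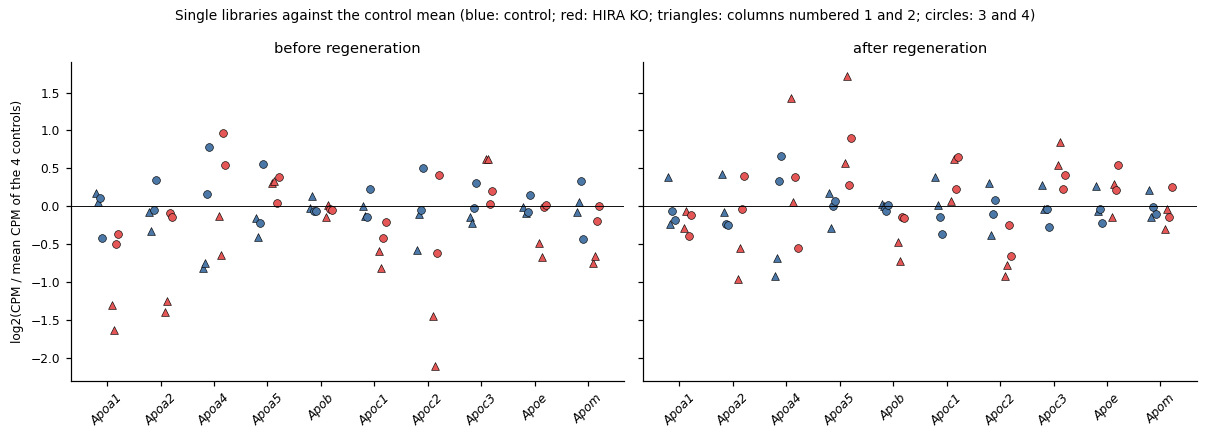
Log2 ratio of the CPM of each library to the mean CPM of the 4 controls of the same time, for each member, before (left) and after (right) regeneration. Blue is control, red HIRA KO, triangles are columns numbered 1 and 2 and circles 3 and 4. Before regeneration the red triangles lie below the controls for Apoa1, Apoa2, Apoe and Apom and above them for Apoc3.

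After regeneration, HIRA KO against control again called no member in edgeR, where 0.491% of all genes (113 genes) were called, with 4 members and 15.8% of all genes at an unadjusted p under 0.05. DESeq2 called 2 members, Apoa5 and Apoc3, and 3.95% of all genes, and limma-voom no member. The median log2 fold change of the members was 0.10, against 0.02 over all genes. The groups did not overlap for 2 members, Apoa5 and Apob, against 8.1% of all genes.

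Apoa5 had 388, 283, 346 and 361 CPM in control and 511, 1128, 420 and 641 CPM in HIRA KO after regeneration. All HIRA KO libraries lay above all controls, and library 2 far above the others. For Apoa5 the log2 fold change was 0.97 ± 0.26 (edgeR adjusted p = 0.0878), and over the alternatives the adjusted p ran from 0.00889 (DESeq2) to 0.335 (without HIRA KO libraries 1 and 2 of both times, value 0.64 ± 0.24). Without HIRA KO library 3 after regeneration it was called (1.17, adjusted p = 0.0362).

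Apob had 3964 to 4233 CPM in control and 2972, 2511, 3751 and 3698 CPM in HIRA KO after regeneration. The log2 fold change of -0.35 ± 0.14 was not called (edgeR adjusted p = 0.244) and was -0.13 ± 0.14 without libraries 1 and 2. Apoc3 had 700 to 1033 CPM in control and 1236, 1524, 990 and 1127 CPM in HIRA KO (log2 fold change 0.53 ± 0.18, edgeR adjusted p = 0.171). DESeq2 gave Apoc3 an adjusted p of 0.0431, and without libraries 1 and 2 its value was 0.34 ± 0.17 (edgeR adjusted p = 0.482). Apoc1 had a log2 fold change of 0.41 ± 0.19 (edgeR adjusted p = 0.294). Among the other 6 members edgeR values ran from -0.62 ± 0.37 for Apoc2 to 0.52 ± 0.52 for Apoa4, with adjusted p from 0.435 to 0.945, and Apoa1 was -0.20 ± 0.24. Without libraries 1 and 2 of both times the Apoa4 value was 0.02 ± 0.59, and that of Apoa2 turned from -0.20 ± 0.32 to 0.21 ± 0.21 and that of Apom from -0.04 ± 0.18 to 0.09 ± 0.18. On the FPKM scale the Apoc2 difference was 0.00 ± 0.26. Both genotype comparisons of one time share no library, but each shares its libraries with the regeneration comparisons.

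Counts and FPKM were made separately, and their ratio differed between groups. The ratio of unscaled CPM to FPKM, written as the number of bases that it implies, was 347 to 388 for Apoc1 in control before regeneration and 264 to 337 in HIRA KO before regeneration. For Apoa2 these ranges were 457 to 500 and 359 to 435 bases, and for Apoc3 469 to 511 and 376 to 462 bases. For Apoe they were 848 to 901 and 714 to 817 bases, for Apoa1 1150 to 1195 and 990 to 1104 bases, and for Apoa5 1157 to 1238 and 1031 to 1079 bases, again without overlap. For Apom the ranges just overlapped, at 1101 to 1159 and 996 to 1102 bases, and for Apoa4 they overlapped with HIRA KO the higher, at 1178 to 1249 and 1246 to 1276 bases. For Apob, the longest member, they overlapped, at 4567 to 4895 and 4703 to 4947 bases. Over 172 genes whose longest transcript is under 800 bases, the median log2 ratio against control before regeneration was -0.31 to -0.09 in HIRA KO before regeneration and -0.06 to 0.04 in control, and over the 4516 genes of the longest class it was -0.09 to -0.02 and -0.01 to 0.02. The direction of every member with an unadjusted p under 0.05 was kept on the FPKM scale in all 5 comparisons.

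**Figure D5:**
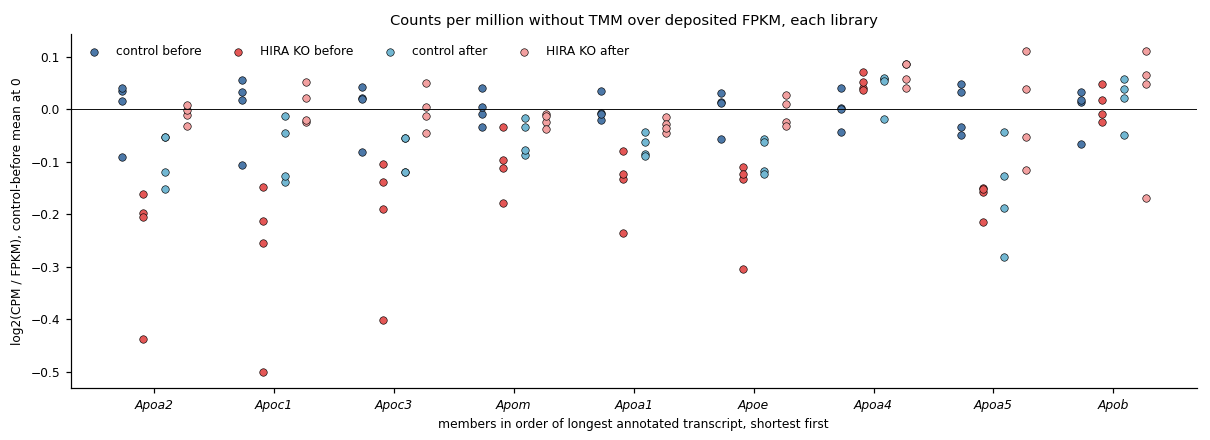
Log2 ratio of CPM without TMM to deposited FPKM for 9 members (Apoc2 left out) in each library, with the mean of control before regeneration at 0, ordered by longest annotated transcript. HIRA KO libraries before regeneration lie below all controls of that time for Apoa1, Apoa2, Apoa5, Apoc1, Apoc3 and Apoe, and among them for Apob.

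The other apolipoprotein genes were measured in full (15 of 15). In control regeneration 1 rose, Clu, a chaperone found on high density lipoprotein (log2 fold change 0.69 ± 0.20, edgeR adjusted p = 0.0394), and 1 fell, Apol7a (-1.19 ± 0.27, adjusted p = 0.0107). In HIRA KO regeneration 3 rose, Clu (1.15 ± 0.21, adjusted p = 0.00197), Apol9a (1.12 ± 0.25, adjusted p = 0.00876) and Apool (0.35 ± 0.11, adjusted p = 0.0392), and none fell. None was called between genotypes, and Apoc4, next to Apoc2, had the smallest p before regeneration (-0.61 ± 0.23, adjusted p = 0.275).

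Lipoprotein assembly and secretion (18 genes) had 2 genes higher and 3 lower in control regeneration and 4 lower in HIRA KO regeneration. In control, Apobec1, the enzyme that edits Apob mRNA, rose (0.64 ± 0.14, edgeR adjusted p = 0.00647), Tm6sf2, which acts in the lipidation of very low density lipoprotein, rose (0.61 ± 0.16, 0.0212), and Sar1b, of the coat that exports such particles from the endoplasmic reticulum, fell (-0.58 ± 0.15, 0.0198). In HIRA KO, Mttp, which loads lipid onto Apob, fell (-0.67 ± 0.19, edgeR adjusted p = 0.0287), as did Sar1b (-0.51 ± 0.15, 0.0348) and Mia2 (-0.52 ± 0.16, 0.0373). None of the 18 was called between genotypes, where Tm6sf2 had the smallest p before (0.79 ± 0.16, adjusted p = 0.0855) and A1cf, the cofactor of Apob mRNA editing, after regeneration (-0.70 ± 0.20, adjusted p = 0.103).

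Among 13 plasma lipoprotein enzymes and inhibitors, 3 fell and none rose in control regeneration, among them Gpihbp1, the anchor of lipoprotein lipase (-0.82 ± 0.16, edgeR adjusted p = 0.00312), and Lipg, endothelial lipase (-1.48 ± 0.41, 0.0334). In HIRA KO regeneration 1 fell and 1 rose, the latter Angptl8 (1.32 ± 0.38, edgeR adjusted p = 0.0399). Of 14 genes of the lipoprotein receptor list, 1 rose and 2 fell in control regeneration and 2 fell in HIRA KO regeneration. Mylip, a ubiquitin ligase, fell in control (-0.97 ± 0.22, edgeR adjusted p = 0.00872) and in HIRA KO (-0.70 ± 0.22, 0.0467), and Lsr rose in control (0.69 ± 0.17, 0.0165). Lrp1, a receptor of Apoe-bearing remnants, was the 1 gene of this list called between genotypes, lower in HIRA KO after regeneration (-0.85 ± 0.18, edgeR adjusted p = 0.0464). The call was lost when any 1 library of these groups was left out except HIRA KO library 4 (adjusted p from 0.038 to 0.177 over 8 omissions), and without HIRA KO libraries 1 and 2 of both times the value was -0.79 ± 0.20 (adjusted p = 0.18). Of 9 efflux genes, Abcg1 rose and Npc1 fell in both genotypes, with log2 fold changes of 0.90 ± 0.19 and -0.77 ± 0.17 in control (edgeR adjusted p = 0.00513 and 0.00697) and of 1.28 ± 0.19 and -0.61 ± 0.17 in HIRA KO (edgeR adjusted p = 5e-04 and 0.0235), where Npc2 also rose (0.38 ± 0.12, 0.0419).

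Of 25 known regulators of apolipoprotein transcription, 3 fell and none rose in control regeneration, and 7 fell and none rose in HIRA KO regeneration, with medians of -0.39 and -0.31. Klf15 fell in both (-1.44 ± 0.17 in control, edgeR adjusted p = 0.00012, and -1.04 ± 0.17 in HIRA KO, 0.000877). Cebpa (-0.91 ± 0.21, 0.011) and Nr1d1, a repressor of the clock and of Apoa1 and Apoc3 (-1.19 ± 0.35, 0.0451), fell in control, and Mlxipl (-0.86 ± 0.22, 0.0167) in HIRA KO. Nr5a2, a nuclear receptor of liver genes, was lower in HIRA KO than in control after regeneration (-0.48 ± 0.10, edgeR adjusted p = 0.0464) and the only one of the 25 called between genotypes. Its call likewise held in 1 of 8 omissions of a library, that of HIRA KO library 4 after regeneration (adjusted p from 0.0341 to 0.169), and without HIRA KO libraries 1 and 2 the value was -0.42 ± 0.13 (adjusted p = 0.221). Of 12 lipid droplet and CREB3L3 target genes, Plin4 fell in control regeneration (-2.27 ± 0.58, edgeR adjusted p = 0.0237), and none was called in the other comparisons.

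Genes beside the clusters were examined to see whether calls extended past the apolipoprotein genes. Of 8 neighbours of the Apoa1 cluster, Zpr1 fell in control (-0.90 ± 0.16, edgeR adjusted p = 0.00199) and in HIRA KO regeneration (-1.04 ± 0.16, 0.000668), and Rnf214 and Sik3 fell in HIRA KO (-0.61 ± 0.12, 0.00361, and -0.54 ± 0.11, 0.00445). Of 8 neighbours of the Apoe cluster, Relb rose in control (1.32 ± 0.26, edgeR adjusted p = 0.00377) and Cblc and Nectin2 in HIRA KO (0.44 ± 0.11, 0.0127, and 0.45 ± 0.13, 0.0361), while Apoe and Apoc1 fell in control. None of the 16 was called between genotypes. Without HIRA KO libraries 1 and 2 of both times, the HIRA KO regeneration calls of Rnf214 (edgeR adjusted p = 0.0883), Nectin2 (0.11), Sar1b (0.0533), Apool (0.0805), Angptl8 (0.286) and Nr5a2 (0.103) were lost, and 7 of the 25 regulators were called lower, 5 of them called with all libraries. In control regeneration the same omission raised the regulators called lower from 3 to 11. Lower calls over all genes rose with it as well, from 960 of 23018 to 1795 of 21500. In HIRA KO regeneration lower calls over all genes went from 1272 of 23018 to 937 of 21500.

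Markers of other cells moved with time. All 10 Kupffer cell and macrophage markers rose after regeneration in both genotypes, and their summed level went from 183 to 493 CPM to 818 to 1032 CPM in control and from 286 to 303 CPM to 843 to 1211 CPM in HIRA KO, with none at 0. Dividing cell markers rose too (8 of 8 in control, 7 of 8 in HIRA KO), from 6.12 to 13.2 CPM summed to 41 to 326 CPM in control and from 8.64 to 24.1 to 45.3 to 305 CPM in HIRA KO. Of 9 measured hepatocyte markers, 2 rose and 2 fell in control and 2 rose and 3 fell in HIRA KO, among them Hpx, a haem carrier of the acute phase (1.54 ± 0.26 in control, edgeR adjusted p = 0.00131), and Tat, an amino acid enzyme (-1.95 ± 0.28, 0.000463), and the list summed to 112245 to 126399 CPM before and 127360 to 192699 CPM after regeneration in control. Most of that sum was Alb, with control means of 86653 CPM before and 106844 CPM after regeneration. Of 8 endothelial markers 1 rose and 2 fell in each genotype, and in control the cholangiocyte marker Spp1 (0.60 ± 0.18, 0.0395), the stellate marker Lum (1.13 ± 0.33, 0.0394) and the B cell marker Ms4a1 (1.95 ± 0.45, 0.00935) rose. Of the 8 enterocyte markers, looked at because intestine makes Apoa1, Apoa4 and Apob, 2 passed the filter on low counts, neither was called, and 4 or 5 were at 0 in all libraries of each group. What these cells contributed to the values of the members was not tested.

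The genes whose levels followed each member most closely over the 16 libraries, among 13166 genes with a mean of at least 1 CPM, were found by Pearson correlation of log2(CPM + 1), a description over libraries that share groups and times. Apoa2 was most like Ndrg2 (r = 0.982) and Gcdh (0.976), Apoa5 like Ube2r2 (0.975) and Marc1 (0.943), and Apoe like Mettl26 and Sirt3 (both 0.947). Apom was most like Fcna (0.956) and Clec4f (0.949), the latter in the Kupffer cell list. Apoa1 was most like the lysosomal genes Man2b1 (0.897) and Ctsa (0.89), Apoa4 like Nans (0.932) and Snrpc (0.913), and Apob like Ahcyl1 (0.933). Apoc1 was most like Zbtb11os1 (0.928) and Tmem256 (0.909), Apoc3 like Fbp1 (0.934) and Hcfc1r1 (0.932), and Apoc2, by its few counts, like Apof (0.9) and Tmem41a (0.881).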

How the data were processed

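Poly-A-selected liver RNA of 16 samples was sequenced. Per the study's methods, the authors trimmed reads with Trim Galore, aligned them to mm10 with STAR and counted them with HOMER, while the submitters' processing notes also name HTSeq and Cufflinks without a role, and which tool made the deposited counts and the deposited FPKM values is not given in the sources used here. Counts are raw whole reads per gene. Empty FPKM cells (48.6% to 54.7% of a column) were read as 0.

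Counts were tested with edgeR 4.0.16 (R 4.3.3), with TMM factors, robust quasi-likelihood, 4 group means over 16 libraries, at least 10 counts in total (23018 of 55421 genes) and Benjamini-Hochberg adjustment, called under 0.05. Group values of single genes were also compared with an exact two-sided permutation test. Alternatives were other scalings and filters, DESeq2 1.42.0, limma-voom (limma 3.58.1), limma on log2(FPKM + 1) and log2(FPKM + 0.1), only the groups compared, a replicate block, single libraries left out, HIRA KO libraries 1 and 2 left out, and column numbers apart. On simulated control regeneration (22451 genes) the test recovered 83% of 100 genes changed by 1 and 95% of 100 changed by 2 on the log2 scale, with 3 false calls. The changed genes were drawn above a floor on mean CPM. Simulated counts were independent, without libraries that stand apart and without livers sampled before and after. These rates therefore do not describe the test on the libraries here.

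All 10 members are named. Of each other list up to 3 called genes with the smallest p are named, or 1 with the smallest p where none was called, and for each member the 2 genes with the highest correlation. Some genes that this rule names are not reported here. The members and lists were chosen with earlier results of these data known. Groups come from the sample labels. Each sample is a separate label entry, but mice cannot be matched to columns, so p-values treat the before and after libraries as independent. Total counts of 15103059 to 21738619 put 8 to 77 counts behind Apoc2 and at least 1607 behind every other member.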

Additional observations from a re-analysis of the deposited data

Results flagged for a closer look

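In 3 of 40 groups of 4 FPKM values, 1 library stood far from the other 3: the gap to its nearest neighbour, divided by the range of the group, exceeded Dixon's critical value. Chance gives about 1 in 20 such groups, and on the CPM scale none of 40 was singled out. For Apoc3 this was control library 4 before regeneration, at 2579 FPKM, with a ratio of 0.902. For Apoa5 it was the same library, at 1004 FPKM, with a ratio of 0.84. For Apoa2 it was control library 1 after regeneration, at 5222 FPKM, with a ratio of 0.84.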

How the results depend on the processing

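No called member changed direction under any alternative run. Members called in control regeneration were 4 to 6 over the alternatives other than leaving 1 library out, and 1 to 5 when 1 was left out. Of all genes the main fit called 10.2% there, DESeq2 14.3%, limma-voom 10.4%, the replicate block 15.3% and limma on log2(FPKM + 1) 8.19%. In HIRA KO regeneration 1 member was called without a filter on low counts or with only the groups compared, 3 on the FPKM scale or without HIRA KO libraries 1 and 2, 4 with DESeq2, limma-voom or the replicate block, and 1 to 3 with 1 library left out. The share of all genes called there was 12% in the main fit, 15.9% with DESeq2, 11.5% with limma-voom and 17.8% with the replicate block. It was 11.1% with limma on log2(FPKM + 1) and 10.3% without HIRA KO libraries 1 and 2. Without the filter 1279 of 34224 genes were called higher and 918 lower, and with only the groups compared 868 of 20922 higher and 563 lower. Between genotypes DESeq2 called 1 member before (1.63% of all genes) and 2 after regeneration (3.95%), and leaving 1 library out gave 0 before and 0 to 1 after. The difference between genotype effects called 0 members throughout. Over all genes, the 113 calls of HIRA KO against control after regeneration fell to 0 with only the groups compared, to 15 without HIRA KO libraries 1 and 2, and to 5 to 12 without any 1 control library or HIRA KO library 1 or 2 after regeneration, and rose to 347 and 452 without HIRA KO library 3 or 4. The cause of these changes was not tested.

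The column numbers appear in no label and are not known to be mice. Each library was taken as deviations of its genes from the group mean, and libraries before regeneration were correlated with those after it. Same-numbered libraries correlated at 0.0805 to 0.377 in control and 0.386 to 0.587 in HIRA KO. Every number matched its own number best, except HIRA KO number 3, which correlated better with another number (0.516). The replicate block took a different form by comparison. Between genotypes it was the column number across all groups, which blocked control and HIRA KO libraries of equal number together although they are different mice. For regeneration and for the difference it was the number within each genotype. With the replicate block, all-gene calls rose from 9 to 104 and from 113 to 565 between genotypes, from 2350 to 3525 and from 2764 to 4097 with regeneration, and from 0 to 9 for the difference. The rise between genotypes thus does not measure a match of before and after libraries. The block called 0, 0, 6, 4 and 0 members in these comparisons.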
